A study of Mus musculus with 12 samples.

Results

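The miR-200 family in the mouse comprises 5 hairpins, miR-200a, miR-200b, miR-200c, miR-141 and miR-429. All rows of the deposited miRNA table that name an arm of 1 of these hairpins were taken, which gave 10 mature miRNAs of 1042. The table came from small RNA sequencing of 12 libraries from 5 cultured mouse cell types. Mouse embryonic fibroblasts (MEFs, replicates 13, 14 and 15) were of the C57B6/129SvJae F1 background. Embryonic stem cells (ESCs, replicates 2, 3 and 4) were the E14 line of the 129/ola strain. Induced pluripotent stem cells (iPSCs, replicates 62 and 63) were made with the OSKM factors (Oct4, Sox2, Klf4 and c-Myc). Nuclear transfer ESCs (NT-ESCs, replicates 71 and 72) were derived by placing MEF nuclei in oocytes, and NT-iPSCs (replicates 51 and 52) by nuclear transfer from iPSCs. The 3 reprogrammed types shared the C57B6/129SvJae F1 background with the MEFs and all went back to the same MEF line. The replicates were batches of RNA from 1 line per cell type, so no p-value measures the spread between lines of a type. The limma p-values measure the spread between batches of a line. The permutation tests of arm ratios pool batches of the 3 reprogrammed types. ESCs and reprogrammed cells were grown on irradiated MEFs, whose RNA may be part of their libraries. Strain and cell type cannot be told apart where ESCs are compared with the other types.

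miRNAs are short RNAs of which one arm of a hairpin precursor, or sometimes both (the 5p and the 3p arm), is loaded into Argonaute and guides it to messenger RNAs, mainly through the seed, bases 2 to 8 from the 5′ end. The miR-200 family is best known from epithelial cells, where it holds down the transcription factors Zeb1 and Zeb2, repressors of the adhesion gene Cdh1. Zeb1 and Zeb2 in turn repress the miR-200 genes, and the loop is linked to the change between epithelial and mesenchymal states. Fibroblasts are mesenchymal, whereas mouse pluripotent cells have epithelial features, and factor reprogramming of fibroblasts passes through a mesenchymal-to-epithelial transition.

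The mature sequences are shown because the family divides in a pair of ways, by seed and by gene cluster, and the measurements below separate along both. They are the RefSeq sequences (GRCm38.p6), written 5′ to 3′ with the seed in capitals, and all 10 members were matched by name. First come the 3p arms, the abundant ones.
mmu-miR-200b-3p: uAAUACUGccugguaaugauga
mmu-miR-200c-3p: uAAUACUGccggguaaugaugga
mmu-miR-429-3p: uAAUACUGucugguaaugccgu
mmu-miR-200a-3p: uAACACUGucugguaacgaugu
mmu-miR-141-3p: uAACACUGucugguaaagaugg
The 3p arms carry 2 seeds that differ by a single base, C4U from mmu-miR-200a-3p to mmu-miR-200b-3p, counted from the 5′ end. The seed AAUACUG belongs to miR-200b, miR-200c and miR-429, and AACACUG to miR-200a and miR-141; of the mature mouse miRNAs given by RefSeq, 0 outside the family carry either. The 5p arms are the minor ones, and 4 different seeds occur among them.
mmu-miR-200b-5p: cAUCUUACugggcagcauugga
mmu-miR-200a-5p: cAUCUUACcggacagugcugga
mmu-miR-141-5p: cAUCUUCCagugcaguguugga
mmu-miR-200c-5p: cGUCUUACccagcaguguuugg
mmu-miR-429-5p: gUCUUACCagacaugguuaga

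The genes lie in 2 clusters, both on the minus strand (GRCm38.p6; the submitters' notes name mm8, and the table itself holds no coordinates). On chromosome 4 the hairpins of miR-200b (chr4:156055681-156055750), miR-200a (chr4:156054896-156054985) and miR-429 (chr4:156053905-156053987) span 1846 bases. The first 2 lie in an intron and miR-429 in an exon of the non-coding transcript Gm13648, and all 3 lie in an intron of the protein-coding gene Ttll10 (GENCODE M21). On chromosome 6 miR-200c (chr6:124718322-124718390) and miR-141 (chr6:124717914-124717985) span 477 bases inside an intron of the non-coding gene Gm15884, and miR-141 overlaps the annotated transcript Gm29008. Each cluster thus holds both 3p seeds. The members nearest in sequence lie in different clusters: mmu-miR-200b-3p and mmu-miR-200c-3p differ by U11G, A22G and 1 more base at the end of the latter, and mmu-miR-141-3p and mmu-miR-200a-3p by A17C and G22U. How reads with mismatches were assigned is not given in the sources used here, so some reads of an abundant member could have been counted for its near-identical partner.

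The start of Gm13648, 4052 bases before the miR-200b hairpin, is printed because the 3p arms of all 3 chromosome 4 hairpins were higher in reprogrammed cells than in MEFs; against ESCs they did not go one way. The window (RefSeq, GRCm38.p6, chr4:156059753-156060052, minus strand) covers 250 bases before and 50 after the annotated start. It was searched on both strands for CACCTG and its reverse complement CAGGTG, the E-box letters to which Zeb factors are known to bind, and the matches are in capitals.
Gm13648 promoter: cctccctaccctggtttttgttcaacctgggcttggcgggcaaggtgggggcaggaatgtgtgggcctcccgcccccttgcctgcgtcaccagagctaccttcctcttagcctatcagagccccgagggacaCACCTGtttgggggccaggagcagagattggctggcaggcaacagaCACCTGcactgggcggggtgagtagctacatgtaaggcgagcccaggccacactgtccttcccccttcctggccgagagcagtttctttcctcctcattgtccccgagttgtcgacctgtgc
There were 2 matches. Of 32851 promoter windows of the same length, 20.2% hold at least 1, and the share with 2 or more was not counted. No window of the chromosome 6 cluster was searched. The match is a description of the letters only, and no factor binding was measured.

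The libraries held 4863365 to 8608689 miRNA reads. The deposited values were variance stabilized (VST) and on a log2 scale; at high counts they equal the log2 of the normalized reads plus 2.11, and at low counts they compress or stretch differences. Whole reads were recovered from them, and normalized reads are those reads divided by the size factor of the library. Tests used limma on the VST values of 732 miRNAs that reached 10 reads in 2 libraries or more, a called difference has a Benjamini-Hochberg adjusted p under 0.05 over those 732, and differences are given ± SE. Of the 10 family members 9 were tested. mmu-miR-429-5p was not, having 0 reads in MEFs and iPSCs, 3 to 8 reads in ESCs and at most 1 in NT-ESCs and NT-iPSCs. mmu-miR-200c-5p, mmu-miR-141-5p and mmu-miR-200a-5p passed the read minimum only through pluripotent libraries, and the first 2 only with ESC libraries among them. A member that passed only through the group where it is high had to differ, so members are counted only where they reached the minimum within each group compared, which 6 did against MEFs and 7 among pluripotent types. Size factors did not overlap between MEFs (0.762 to 0.819), ESCs (0.887 to 0.999) and reprogrammed cells (1.14 to 1.44), so the scaling set between these groups cannot be told apart from cell type, and values that need no scaling are given beside those that do.

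The marker miRNAs of pluripotent cells were as the labels name the cells. The 24 arms of the miR-290 and miR-302 clusters, the defining miRNAs of mouse pluripotent cells, held 10.2% to 20.8% of reads in the 9 pluripotent libraries and at most 0.00129% in MEFs, where 13 of the 24 had 0 reads in every library. The 21 arms listed for fibroblasts (miR-143, miR-145, miR-199, miR-214, miR-10b, miR-196, miR-206 and miR-615) held 17.8% to 22.1% of reads in MEFs. Of these, miR-206 is better known from muscle, and mmu-miR-206-3p alone had 692791 to 922249 reads per MEF library. The share of the 21 arms in an ESC library was 4.99% to 5.82%, in an iPSC library 2.16% to 2.36%, in an NT-ESC library 6.12% to 6.21% and in an NT-iPSC library 6.24% to 7.21%. In the reprogrammed libraries 89.4% to 93.97% of these reads were mmu-miR-199a-3p and mmu-miR-199b-3p. In MEFs the pair made up 7.76% to 9.66%. Their values were almost equal (55933 to 60535 and 55923 to 60527 reads in iPSCs), so that the same reads may be counted for both. If so, the shares of the reprogrammed libraries are inflated more than that of MEFs. mmu-miR-199a-3p had 74409 to 122108 normalized reads in MEFs, fewer in iPSCs (41065 to 44341), and more in NT-ESCs (149265 to 157497) and NT-iPSCs (172493 to 207668). Of the 17 arms that reached 10 reads in 2 libraries on both sides, 15 were lower in reprogrammed cells than in MEFs, 0 higher and 2 not called, where 40.4% of all tested miRNAs were called lower and 48.5% higher. Among the lower ones, mmu-miR-206-3p differed by -9.73 ± 0.157, mmu-miR-10b-5p by -7.09 ± 0.139, mmu-miR-196a-5p by -6.75 ± 0.162 and mmu-miR-143-3p by -5.69 ± 0.189 (adjusted p = 3.9e-13, 1.6e-12, 7.3e-12 and 8.5e-11). Against ESCs, 11 of the 16 arms at the minimum on both sides were lower in reprogrammed cells and 5 higher (38% and 44% of all). There mmu-miR-143-3p differed by -4.22 ± 0.189 and mmu-miR-199a-3p by 3.66 ± 0.163, so a like summed share hid unlike arms. In cultures of more than one cell type, fewer cells of a type and less of the RNA per cell cannot be told apart.

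The chromosome 4 cluster was high in every pluripotent cell type, while the chromosome 6 cluster was high in ESCs and far lower in reprogrammed cells. For chromosome 4 arms the share of miRNA reads was 0.206% ± 0.0224 (SD, n = 3) for ESCs, 0.163% ± 0.0366 (SD, n = 6) for reprogrammed cells and 0.00456% ± 0.000451 (SD, n = 3) for MEFs. For chromosome 6 arms it was 0.290% ± 0.0586 (SD, n = 3), 0.0232% ± 0.0104 (SD, n = 6) and 0.0107% ± 0.00243 (SD, n = 3) in the same order. The lowest ESC library for the chromosome 6 cluster, at 0.234%, stood above the highest reprogrammed library, at 0.0354%. Both iPSC libraries (0.0279% and 0.0354%) and both NT-ESC libraries (0.0225% and 0.0312%) were above the MEF range of 0.00829% to 0.0131% in this share, and the NT-iPSC libraries (0.00887% and 0.0134%) overlapped it. In normalized reads the MEF range, 796 to 1334, overlapped those of all 3 types, so the standing against MEFs depends on the scaling. As a share of the family's own reads, which no scaling affects, the chromosome 6 arms made up 65.8% to 72.1% for MEFs, 55.6% to 60.4% for ESCs and 7.03% to 14.9% for reprogrammed cells. MEFs and ESCs were thus near each other in this share, and the reprogrammed libraries stood apart from both. The family as a whole took 0.0126% to 0.0182% of a MEF library (991 to 1468 reads), 0.422% to 0.582% of an ESC library and 0.126% to 0.237% of a reprogrammed library.

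**Figure D1:**
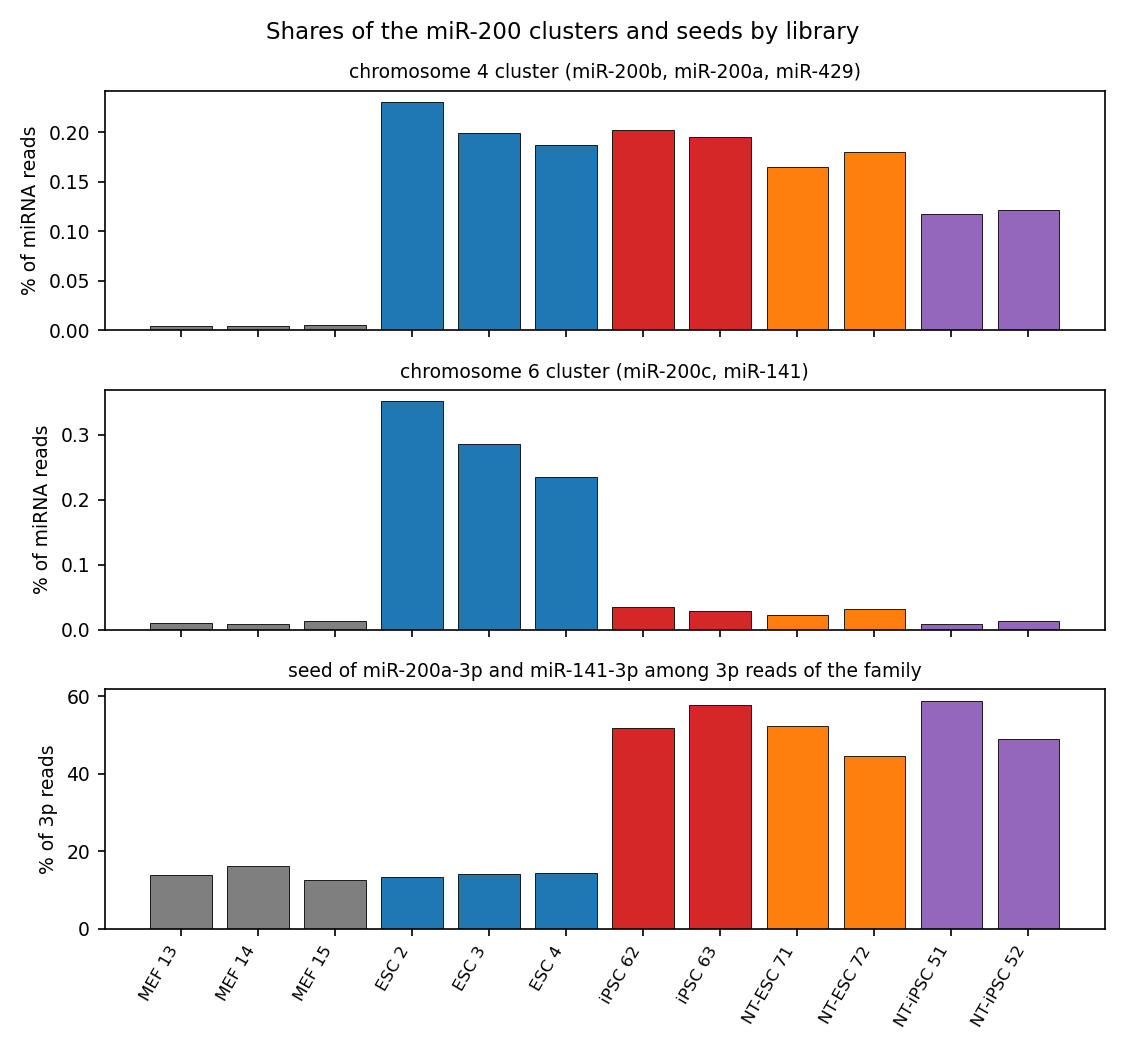
Bars give, for each of the 12 libraries, the percent of miRNA reads from the chromosome 4 cluster (top) and the chromosome 6 cluster (middle), and the percent of the family's 3p reads with the seed of miR-200a-3p and miR-141-3p (bottom); colours mark cell types. The chromosome 6 bars are high in the 3 ESC libraries (0.234% or more) and at most 0.0354% elsewhere, and the seed share is 44.5% or more in all 6 reprogrammed libraries and at most 16.3% in the others.

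mmu-miR-200c-3p, the AAUACUG member of the chromosome 6 cluster, was the most abundant of the family in MEFs and ESCs. It had 1096, 715 and 1237 normalized reads in MEFs, 17997, 15299 and 11834 in ESCs, 1266 and 1210 in iPSCs, 1127 and 1609 in NT-ESCs, and 498 and 759 in NT-iPSCs. ESC libraries stood above all others, and the MEF range overlapped those of all 3 reprogrammed types. In reprogrammed cells the VST value differed from that of ESCs by -3.88 ± 0.216 (limma adjusted p = 1.2e-08). Among all miRNAs in a library it ranked 48 to 60 for ESCs and 163 to 242 for reprogrammed cells. Its neighbour mmu-miR-141-3p, with the other seed, had 112, 73.2 and 88.2 normalized reads in MEFs and 1219, 1126 and 862 in ESCs. It had 92.5 and 25.6 in iPSCs, 45.02 and 88.3 in NT-ESCs, and 41.7 and 42.2 in NT-iPSCs. ESCs again stood apart, with the MEF range overlapping those of iPSCs and NT-ESCs and lying above both NT-iPSC libraries. The iPSC libraries differed more from each other than their level differed from the MEF level.

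mmu-miR-200a-3p, the AACACUG member of the chromosome 4 cluster, was the single member above its ESC level in reprogrammed cells. It had 122, 117 and 139.8 normalized reads in MEFs and 2887, 2716 and 2292 in ESCs. It had 4385 and 5436 in iPSCs, 4730 and 4659 in NT-ESCs, and 4259 and 3616 in NT-iPSCs. All 6 reprogrammed libraries were above all 3 ESC libraries, and these above all 3 MEF libraries. Beside it, mmu-miR-200b-3p had 188, 107 and 163 normalized reads in MEFs and 5099, 4555 and 4351 in ESCs. In iPSCs it had 1933 and 1563, in NT-ESCs 2183 and 2984, and in NT-iPSCs 1345 and 1847. mmu-miR-429-3p, from the exonic hairpin of the cluster, had 155, 153 and 161 normalized reads in MEFs and 3743, 3513 and 2628 in ESCs. It had 967 and 1208 in iPSCs, 1054 and 1320 in NT-ESCs, and 1161 and 1201 in NT-iPSCs. For both, each reprogrammed library lay between the MEF and the ESC ranges without touching either.

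The 5p arms had fewer reads. mmu-miR-200b-5p, the most abundant, had 15.7, 33.0 and 47.9 normalized reads in MEFs, 812, 628 and 782 in ESCs, 494 and 478 in iPSCs, 650.4 and 819 in NT-ESCs, and 393 and 571 in NT-iPSCs. Its NT-ESC and ESC ranges overlapped. mmu-miR-200a-5p had 3 reads in each MEF library, 90, 95 and 123 reads in ESCs and 41 to 88 per reprogrammed library. mmu-miR-141-5p had 2 to 7 reads per MEF library, 29 to 46 per ESC library and 3 to 10 per reprogrammed library. mmu-miR-200c-5p had 0 reads in each MEF library, 10, 14 and 8 in ESCs, 11 and 7 in iPSCs, 5 and 1 in NT-ESCs, and 0 and 1 in NT-iPSCs. The limit that a count of 0 allows is 3 reads per library, 3.66 to 3.94 normalized reads in MEFs.

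**Figure D2:**
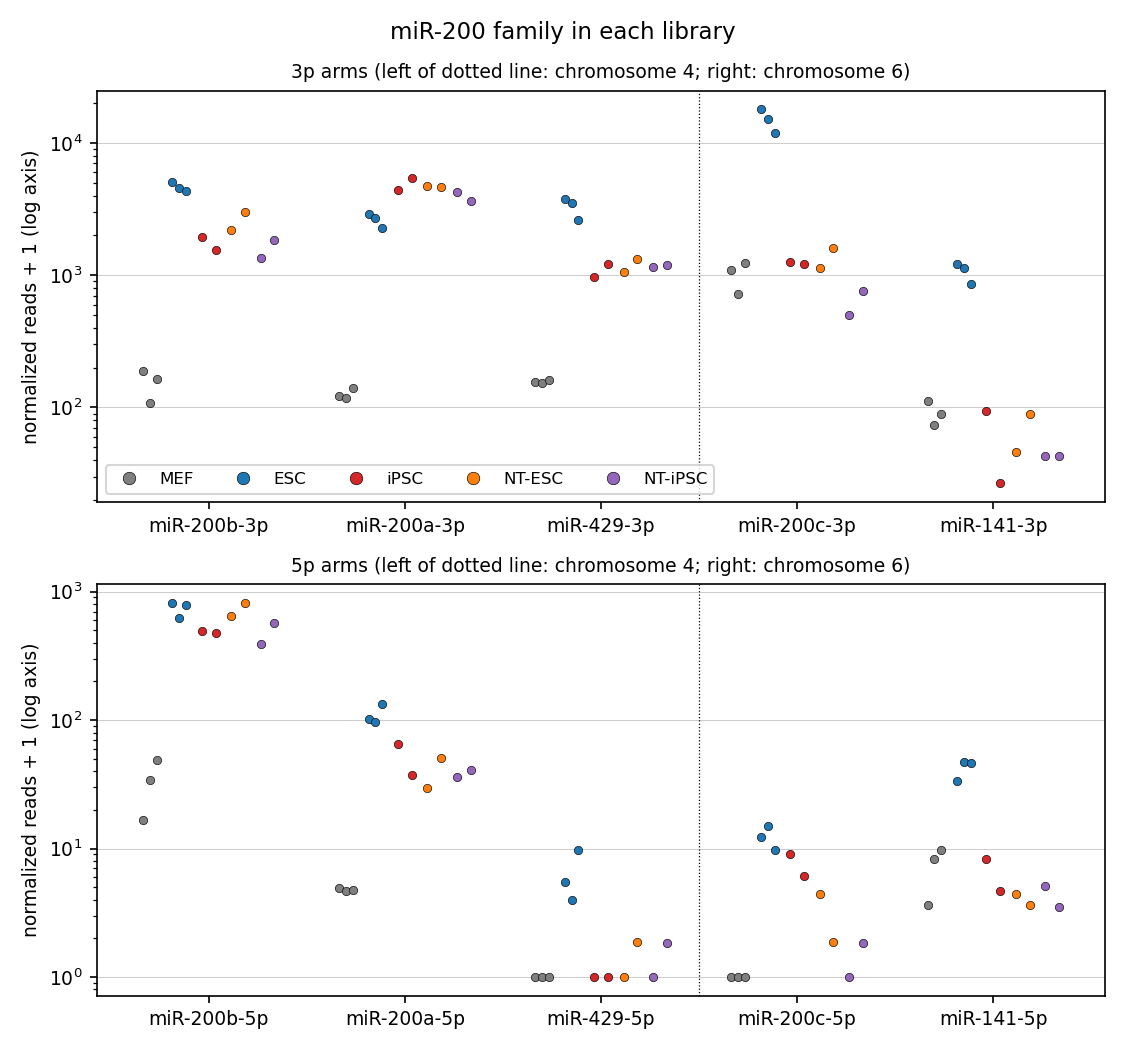
Each point is 1 library, with normalized reads plus 1 on a log axis; the upper panel holds the 3p and the lower panel the 5p arms, with chromosome 4 members to the left of the dotted line and chromosome 6 members to the right. For miR-200c-3p and miR-141-3p the ESC points stand alone at the top (862 or more for miR-141-3p), whereas for miR-200b-3p, miR-200a-3p, miR-429-3p and miR-200b-5p the MEF points stand alone at the bottom.

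The order of the cell types by mean VST differed between the clusters. For mmu-miR-200c-3p it was ESC, NT-ESC, iPSC, MEF, NT-iPSC, and for mmu-miR-141-3p ESC, MEF, NT-ESC, iPSC, NT-iPSC. In both, every pair of neighbours after ESC overlapped between libraries. For mmu-miR-200b-3p it was ESC, NT-ESC, iPSC, NT-iPSC, MEF, in which iPSC and NT-iPSC overlapped. For mmu-miR-429-3p it was ESC, NT-iPSC, NT-ESC, iPSC, MEF, in which the 3 reprogrammed types overlapped. For mmu-miR-200a-3p it was iPSC, NT-ESC, NT-iPSC, ESC, MEF, in which iPSC and NT-ESC overlapped.

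The comparison of MEFs with ESCs asks how the family stands in a somatic and in a natural pluripotent cell. Of the 6 members that reached the read minimum in MEFs and in ESCs, 6 were called lower in MEFs, where 39.9% of all tested miRNAs were called lower and 39.1% higher. The other 3 tested members passed only through pluripotent libraries, and their direction is not counted. mmu-miR-200b-3p differed by -4.96 ± 0.223 (adjusted p = 4.1e-09), which was 30.6-fold in mean normalized reads. mmu-miR-429-3p, at -4.38 ± 0.166 (adjusted p = 8.8e-10), and mmu-miR-200a-3p, at -4.37 ± 0.145 (adjusted p = 2.9e-10), were 21.1-fold and 20.8-fold higher in ESCs. The chromosome 6 members mmu-miR-200c-3p and mmu-miR-141-3p were 14.8-fold and 11.7-fold higher in ESCs, with differences of -3.90 ± 0.250 (adjusted p = 7.5e-08) and -3.55 ± 0.414 (adjusted p = 1.1e-05). mmu-miR-200b-5p differed by -4.62 ± 0.333 (adjusted p = 1.9e-07). For mmu-miR-200c-5p, with 0 reads in MEFs and 8 to 14 in ESCs, no fold is given.

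MEFs were not without the family. Beside the 586 to 982 reads of mmu-miR-200c-3p in MEF libraries, the pluripotent marker mmu-miR-294-3p had 0 to 4 reads there, against 14762 to 18859 in ESCs. mmu-miR-302a-3p had 0 reads in every MEF library. The summed pluripotent list had 8.55 to 146 normalized reads in MEFs, fewer than mmu-miR-200c-3p alone.

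The comparison of reprogrammed cells with ESCs asks whether reprogramming set the family to the level of natural ESCs. Of the 7 members that reached the read minimum on both sides, 5 were lower and 1 higher in the 6 reprogrammed libraries, with 1 not called, where 38% of all tested miRNAs were called lower and 44% higher. The 3p arms of chromosome 6 held the largest differences among these 7. mmu-miR-141-3p differed by -4.37 ± 0.359 (adjusted p = 3.9e-07), with a mean 19.1-fold higher in ESCs, against 13.95-fold for mmu-miR-200c-3p. The 5p arms of both hairpins passed the minimum only with ESC libraries, so their fitted differences from ESCs are not given. On chromosome 4, mmu-miR-429-3p differed by -1.51 ± 0.143 (adjusted p = 1.4e-06) and mmu-miR-200b-3p by -1.28 ± 0.193 (adjusted p = 7.5e-05), which were 2.86-fold and 2.36-fold in mean normalized reads. mmu-miR-200a-5p differed by -1.40 ± 0.258 (adjusted p = 0.000376). mmu-miR-200a-3p rose by 0.77 ± 0.126 (adjusted p = 0.00014), 1.72-fold in mean normalized reads. mmu-miR-200b-5p had a difference of -0.41 ± 0.288 that was not called (adjusted p = 0.201). With voom, with ESC and reprogrammed libraries alone, or without MEF replicate 13, the adjusted p for this arm was 0.0424, 0.0348 and 0.0493.

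The reprogrammed types were also set one by one against the same ESC libraries. Of the same 7 members, 1 was higher and 5 lower in iPSCs than in ESCs (39.8% of all tested miRNAs were called higher and 36.1% lower). In NT-ESCs 1 was higher and 5 lower (39.8% and 36.1% of all). In NT-iPSCs 1 was higher and 5 lower (41.1% and 36.5% of all). mmu-miR-200a-3p was the higher one each time, at 0.90 ± 0.162 (iPSCs), 0.84 ± 0.162 (NT-ESCs) and 0.58 ± 0.162 (NT-iPSCs; adjusted p = 0.000376, 0.0006 and 0.00669); without NT-iPSC replicate 51 the last was 0.47 (adjusted p = 0.0622). mmu-miR-200c-3p was lower by -3.58 ± 0.280, -3.46 ± 0.280 and -4.59 ± 0.280 in the same order. mmu-miR-200b-5p was not called in any of the 3. It was called lower in iPSCs with voom, with only those groups fitted and without MEF replicate 13 (adjusted p = 0.0266, 0.0162 and 0.0334), and in NT-iPSCs under the same 3 settings (adjusted p = 0.0203, 0.0328 and 0.0254) and with TMM-type scaling (adjusted p = 0.0403). Without NT-ESC replicate 71, mmu-miR-200b-3p was no longer called in NT-ESCs (adjusted p = 0.0926). Without iPSC replicate 63, and with total count scaling, mmu-miR-200a-5p was no longer called in iPSCs (adjusted p = 0.104 and 0.0776).

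**Figure D3:**
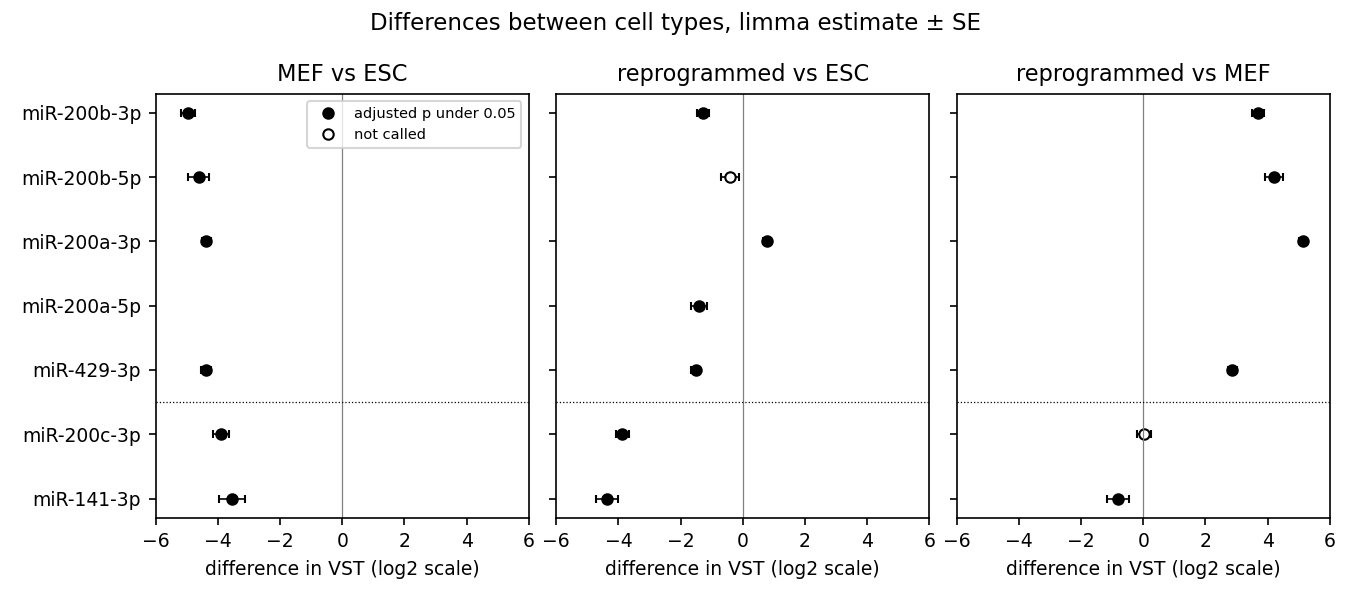
Points give the limma difference in VST (log2 scale) ± SE of each member that reached the read minimum in both groups of a comparison, filled where the adjusted p was under 0.05 and open where it was not; the dotted line separates chromosome 4 members (above) from chromosome 6 members (below). The 6 members plotted for MEFs against ESCs lie left of 0; for reprogrammed cells against MEFs the 4 chromosome 4 members lie between 2.87 and 5.14, while miR-200c-3p lies at 0.03.

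The comparison of reprogrammed cells with the MEFs of the line they were made from asks which members left the somatic level. Of the 6 members that reached the read minimum on both sides, 4 were higher, 1 lower and 1 not called, where 48.5% of all tested miRNAs were called higher and 40.4% lower. The 4 higher ones were chromosome 4 arms. mmu-miR-200a-3p rose by 5.14 ± 0.126 (adjusted p = 8.2e-12), 35.7-fold in mean normalized reads. mmu-miR-200b-5p rose by 4.21 ± 0.288, mmu-miR-200b-3p by 3.68 ± 0.193 and mmu-miR-429-3p by 2.87 ± 0.143 (adjusted p = 5.1e-08, 4.7e-09 and 3.1e-09). These 4 were called higher in each of the 3 reprogrammed types. mmu-miR-200a-5p, with 3 reads in each MEF library, passed only through pluripotent libraries, and its fitted difference is not given. Of the 6 members, 4 were higher and 0 lower in iPSCs than in MEFs (48.6% and 39.2% of all tested miRNAs), in NT-ESCs 4 and 0 (45.9% and 38.1%), and in NT-iPSCs 4 and 2 (46.7% and 36.3%).

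The chromosome 6 members had no clear direction against MEFs. mmu-miR-200c-3p differed by 0.03 ± 0.216 (adjusted p = 0.908); the difference was -0.40 with upper quartile scaling, 0.37 with TMM-type scaling and, called, 1.03 with total count scaling (adjusted p = 0.000555). This value averages types on either side of 0: against MEFs it was 0.32 ± 0.280 in iPSCs and 0.44 ± 0.280 in NT-ESCs, neither called (adjusted p = 0.291 and 0.157), and -0.69 ± 0.280 in NT-iPSCs. With TMM-type scaling the iPSC and NT-ESC differences were called, at 0.67 and 0.81 (adjusted p = 0.0396 and 0.017), as they were with total count scaling, at 1.63 and 1.39 (adjusted p = 0.000125 and 0.000455). mmu-miR-141-3p was called lower, at -0.82 ± 0.359 (adjusted p = 0.0496), but was -1.24 with upper quartile scaling (adjusted p = 0.00822), -0.48 with TMM-type scaling (adjusted p = 0.239) and 0.18 with total count scaling (adjusted p = 0.654). The call was also lost with no filter on low counts and with only these groups fitted (adjusted p = 0.107 and 0.084), and on leaving out any MEF, ESC or NT-iPSC library, iPSC replicate 63 or NT-ESC replicate 71, with adjusted p of 0.0523 to 0.151. In iPSCs alone it was -0.87 ± 0.463 and not called (adjusted p = 0.0983), but was called lower with upper quartile scaling (-1.33, adjusted p = 0.0216). Total count scaling moved iPSCs against MEFs by 1.31, more than this difference and in the other direction. On leaving out single libraries the difference ran from -1.78, without iPSC replicate 62, to 0.045. The count of 0 lower in iPSCs thus rests on single libraries and on the scaling. mmu-miR-141-5p, at -0.53 ± 0.394, was not called (adjusted p = 0.224), with MEFs and reprogrammed cells both under the read minimum. It was -0.90 with upper quartile, -0.22 with TMM-type and 0.34 with total count scaling. Without MEF replicate 13 it was -0.995 (adjusted p = 0.027). mmu-miR-200c-5p had 0 reads in MEFs against 0 to 11 in reprogrammed cells, too few for a fold. The NT-iPSC libraries, with 0 and 1 reads, were under the limit of 3 reads. In NT-iPSCs, mmu-miR-200c-3p (adjusted p = 0.0398) and mmu-miR-141-3p (-1.08 ± 0.463, adjusted p = 0.0479) were called lower than in MEFs. Without NT-iPSC replicate 51 the adjusted p was 0.315 and 0.139, and with total count scaling the differences were 0.08 and -0.33. TMM-type scaling (-0.38 and -0.78, adjusted p = 0.221 and 0.153) and no filter on low counts (adjusted p = 0.0861 and 0.106) also ended both calls, and fitting only these groups ended that of mmu-miR-200c-3p (adjusted p = 0.0994). Leaving out MEF replicate 13 or 15 or ESC replicate 3 also ended both calls (adjusted p = 0.0554 to 0.124), as did either iPSC library for mmu-miR-200c-3p and ESC replicate 2 or 4 or NT-iPSC replicate 52 for mmu-miR-141-3p (adjusted p = 0.0522 to 0.133). The part of feeder reads in these low levels was not tested.

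**Figure D4:**
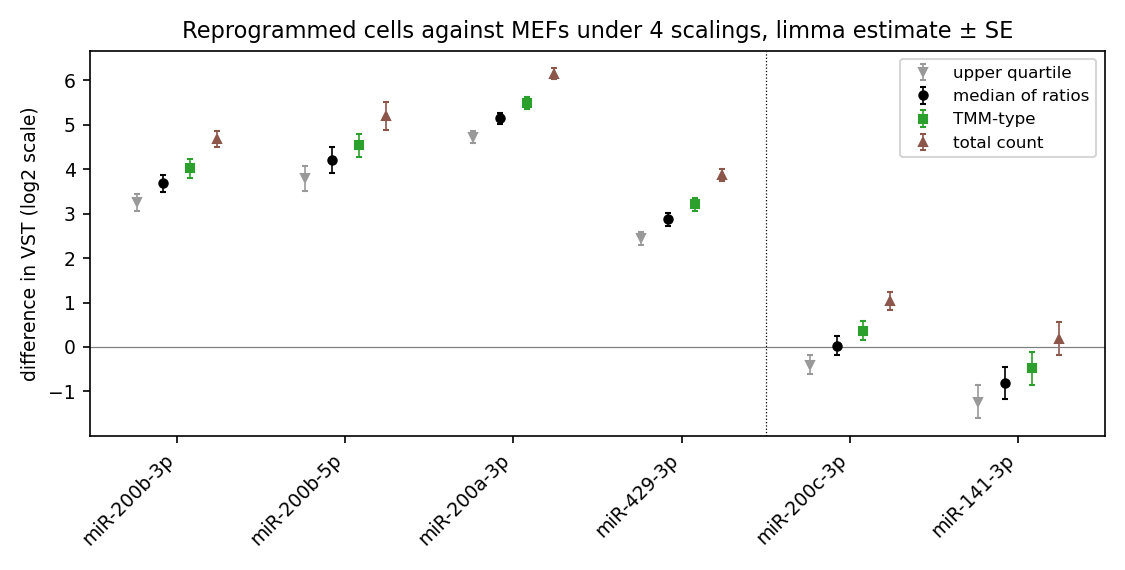
Points give the limma difference in VST between reprogrammed cells and MEFs ± SE under 4 ways to scale libraries, for each of the 6 members at the read minimum on both sides. The 4 chromosome 4 members left of the dotted line stay above 2 under all 4, while miR-200c-3p runs from -0.40 to 1.03 across 0.

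The relation between neighbours within a cluster was read within each library, where scaling has no part. The ratio of miR-200c-3p to miR-200b-3p, which share a seed but not a cluster, was 5.84 to 7.61 for MEFs, 2.72 to 3.53 for ESCs and 0.370 to 0.774 for reprogrammed cells. The ratio of miR-200a-3p to miR-200b-3p, which share a cluster but not a seed, was 0.650 to 1.09 for MEFs, 0.527 to 0.596 for ESCs and 1.56 to 3.48 for reprogrammed cells. In neither ratio did reprogrammed libraries overlap those of MEFs or ESCs, so the chromosome 4 members did not move in one proportion. The ratio of miR-429-3p to miR-200b-3p, 0.442 to 0.863 in reprogrammed cells, overlapped those of MEFs (0.825 to 1.42) and ESCs (0.604 to 0.771). The reads of mmu-miR-141-3p were 62.5% to 91.4% of those of its near-identical partner mmu-miR-200a-3p for MEFs, 37.6% to 42.2% for ESCs and 0.472% to 2.11% for reprogrammed cells; the part of misassigned reads in these low counts was not tested.

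The balance of the seeds shifted with the clusters. The AACACUG seed of miR-200a and miR-141 had 12.7% to 16.3% of the family's 3p reads for MEFs, 13.3% to 14.4% for ESCs and 44.5% to 58.9% for reprogrammed cells. In normalized reads, the AACACUG arms summed to 217 ± 23.5 (SD, n = 3) for MEFs, 3700.5 ± 491 (SD, n = 3) for ESCs and 4570.0 ± 597 (SD, n = 6) for reprogrammed cells. The AAUACUG arms of miR-200b, miR-200c and miR-429 summed to 1325 ± 309 (SD, n = 3), 23006 ± 4025 (SD, n = 3) and 4206 ± 958 (SD, n = 6). By type, the AACACUG sum was above the ESC range (3154 to 4106) in iPSCs (4478 to 5461) and NT-ESCs (4747 to 4775). In NT-iPSCs (3658 to 4301) it overlapped that range. The AAUACUG sum of reprogrammed cells was between those of MEFs and ESCs. Different miRNAs ligate to adapters with different efficiency, so sums and ratios across members are shares of reads and not of molecules.

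Across the 12 libraries the VST values of the 3p arms followed the clusters more closely than the seeds. Pearson's r was 0.979 for miR-200b with miR-429, which also share a seed, and 0.894 for miR-200a with miR-200b, within chromosome 4, and 0.949 for miR-200c with miR-141 on chromosome 6. Between clusters, pairs that share a seed had 0.658 (miR-200c with miR-429), 0.597 (miR-200b with miR-200c) and 0.004 (miR-200a with miR-141). These values describe 12 libraries that fall into separate cell types and carry no test.

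Among the 3 reprogrammed types, the share of reads from the whole family did not overlap, being 0.223% and 0.237% in iPSCs, 0.187% and 0.211% in NT-ESCs and 0.126% and 0.134% in NT-iPSCs. In normalized reads iPSCs (9218 and 9966) and NT-ESCs (9825 and 11532) overlapped, with NT-iPSCs (7737 and 8080) below both. Single members were mostly not called. Between NT-ESCs and iPSCs 0 of the 7 members were called by limma (12.6% of all tested miRNAs were called higher in NT-ESCs and 13.1% lower) with 0 at an unadjusted p under 0.05 and 0 with voom. The differences ran from -0.36 ± 0.364 for mmu-miR-200a-5p to 0.59 ± 0.408 for mmu-miR-200b-5p. NT-iPSCs had 1 of the 7 members lower than iPSCs and 0 higher (13.1% and 13.4% of all), mmu-miR-200c-3p at -1.01 ± 0.306 (adjusted p = 0.0326). With total count scaling mmu-miR-200a-3p was also called lower, at -0.86 (adjusted p = 0.00256), against -0.32 ± 0.178 here (adjusted p = 0.231). Against NT-ESCs, NT-iPSCs had 1 member lower and 0 higher (7.24% and 5.6% of all), again mmu-miR-200c-3p, at -1.13 ± 0.306 (adjusted p = 0.0385), with mmu-miR-200b-3p called lower as well under total count scaling and voom (-0.88 and -0.69, adjusted p = 0.0474 and 0.0394). The pair of NT-iPSC libraries lay below all iPSC and NT-ESC libraries for this arm. Its call was lost without NT-iPSC replicate 51, with differences of -0.71 (adjusted p = 0.222) against iPSCs and -0.83 (adjusted p = 0.191) against NT-ESCs, and when only the pair of groups compared was fitted (adjusted p = 0.0837 and 0.0899) or no filter was set on low counts (adjusted p = 0.0792 and 0.0822). It was also lost without either iPSC library (adjusted p = 0.115 and 0.0981) and, against NT-ESCs, without NT-ESC replicate 71 or 72 or ESC replicate 3 (adjusted p = 0.0908, 0.223 and 0.0635). These comparisons share libraries.

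The choice of arm was examined as the ratio of 3p to 5p reads of a hairpin, on a log2 scale with 0.5 reads added to both. The hairpin of miR-200a (Mir200a, chr4:156054896-156054985, minus strand, RefSeq) is printed to show where both arms lie, with the 5p and then the 3p arm in capitals.
Mir200a: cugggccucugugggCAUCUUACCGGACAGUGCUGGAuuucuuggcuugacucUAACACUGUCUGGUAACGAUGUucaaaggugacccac
For each 5p read of miR-200a there were 31, 32 and 37 3p reads in MEFs and 28.4, 28.6 and 17.2 in ESCs. There were 67.9 and 148 in iPSCs, 167 and 93.4 in NT-ESCs, and 121 and 91 in NT-iPSCs. All 6 reprogrammed libraries stood above all MEF and ESC libraries. The log2 ratio was 6.76 ± 0.483 (SD, n = 6) for reprogrammed cells, 4.58 ± 0.419 (SD, n = 3) for ESCs and 4.84 ± 0.135 (SD, n = 3) for MEFs. By an exact two-sided permutation test the differences of 2.18 and 1.92 had p = 0.0119, the smallest that 84 arrangements can give, and adjusted p = 0.0476 over 12 tests (4 hairpins, 3 comparisons). The test took the 6 reprogrammed libraries, from 3 types, as exchangeable, so its spread mixes batches and types. The MEF ratios divide by 3 reads of the 5p arm in each library, under the read minimum, so the difference from MEFs is imprecise and the spread of the MEF libraries does not cover its counting error. In normalized reads, the 3p arm was higher and the 5p arm lower than in ESCs in all 6 reprogrammed libraries, the latter with 41 to 88 reads.

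The hairpin of miR-200b, its neighbour, differed the other way. Each 5p read was matched by 6.28, 7.26 and 5.56 3p reads in ESCs and by 3.23 to 3.91 in the 6 reprogrammed libraries, which did not overlap. The log2 ratio differed by -0.87 (exact permutation p = 0.0119, adjusted p = 0.0476). In MEFs it was 11.9, 3.26 and 3.39, with MEF replicate 13, on 12 reads of the 5p arm, apart from the others; the difference from reprogrammed cells was -0.53 (exact permutation p = 0.286, adjusted p = 0.4) and 0.07 without that replicate. For miR-200c and miR-141 0 of the 6 tests passed (adjusted p = 0.167 to 0.798), on 0 to 14 and 2 to 46 reads of the 5p arm. With 3 libraries against 3, the exact permutation test of MEFs against ESCs cannot go below p = 0.1. Leaving out any 1 library raised the adjusted p of the 3 passing differences to between 0.0536 and 0.143. The full design passes only because 3 tests tie at its smallest p, and fewer libraries allow fewer arrangements. The adjustment also makes each pass depend on the others. Without a MEF library the differences from ESCs stayed at 2.18 and -0.87, yet their adjusted p rose to 0.0714. This loss therefore does not bear on stability. On leaving out 1 library the 3 differences ran from 1.94 to 2.32, 1.80 to 2.06 and -0.96 to -0.77.

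**Figure D5:**
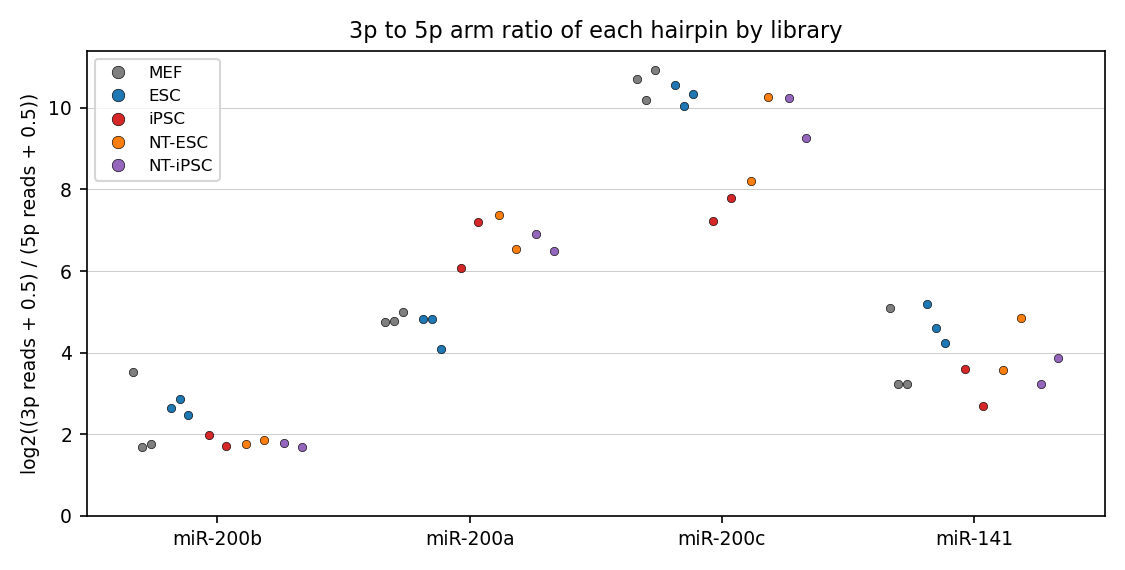
Each point is 1 library, with the log2 ratio of 3p to 5p reads (0.5 added to both) for 4 hairpins; colours mark cell types. For miR-200a the 6 reprogrammed points lie above the MEF and ESC points, and for miR-200b they lie below the ESC points.

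Other epithelium-linked miRNAs (arms of miR-205, miR-203, miR-192, miR-194, miR-215, miR-375 and miR-31) changed in both directions. Of 15 arms 10 were tested, and they are counted where they reached the read minimum on both sides. In MEFs against ESCs 2 of 8 were higher, 3 lower and 3 not called, beside 39.1% higher and 39.9% lower of all tested miRNAs. In reprogrammed cells against ESCs 5 of 7 were higher and 2 lower (44% and 38% of all), and against MEFs 4 of 8 were higher, 3 lower and 1 not called (48.5% and 40.4% of all). Named here are the 4 arms with the highest mean VST over the 12 libraries and 2 arms chosen after their values were seen. mmu-miR-192-5p was 0.97 ± 0.128 higher in reprogrammed cells than in ESCs (adjusted p = 2.6e-05) and 1.12 ± 0.128 higher than in MEFs. mmu-miR-31-5p was 0.75 ± 0.198 higher in reprogrammed cells than in ESCs (adjusted p = 0.00424) and differed by -0.10 ± 0.198 from MEFs (adjusted p = 0.642). mmu-miR-203-3p, known from skin, was 2.65 ± 0.157 higher in MEFs than in ESCs (adjusted p = 4.2e-08). mmu-miR-194-5p was lower in reprogrammed cells by -3.52 ± 0.138 against ESCs and by -3.13 ± 0.138 against MEFs (adjusted p = 7.1e-10 and 9.8e-10). Of the arms chosen after their values were seen, mmu-miR-205-5p, known from stratified epithelia, was lower in MEFs than in ESCs by -2.69 ± 0.319, while reprogrammed cells exceeded MEFs by 6.24 ± 0.277 (adjusted p = 1.3e-05 and 1.0e-09), on 6 to 16 reads per MEF library. mmu-miR-375-3p, known from pancreatic islets, exceeded its MEF level by 3.01 ± 0.317 in reprogrammed cells (adjusted p = 2.7e-06) and differed by 0.26 ± 0.366 between MEFs and ESCs (adjusted p = 0.517). mmu-miR-31-5p also had 4321 to 4652 reads in MEFs, the cell type of the feeders, and the part of feeder reads in its levels was not tested.

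The miRNAs outside the family with the profile most like its 3p arms were sought among 428 with a mean VST above 10 in at least 1 cell type, by Pearson's r over the 12 libraries with the mean centred VST of the 5 tested 3p arms. They were mmu-miR-20b-5p (r = 0.982), mmu-miR-96-5p (0.980), mmu-miR-106a-5p (0.980), mmu-miR-1968-5p (0.979) and mmu-miR-183-3p (0.973). Their mean VST was lowest in MEFs and highest in ESCs. For mmu-miR-20b-5p it was 16.64 (ESCs), 13.81 (NT-ESCs), 13.11 (NT-iPSCs), 12.87 (iPSCs) and 8.33 (MEFs). The mean profile of the family thus averages the patterns of both clusters, and these 5 were selected for likeness to it, with no test.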

How the data were processed

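Total RNA of 12 libraries was size-selected to small RNA, prepared by the standard Illumina protocol and sequenced on the Solexa platform. The authors removed adapters, low-quality tags and contaminants, normalized miRNA reads with DESeq and deposited variance-stabilized values on a log2 scale. The authors' submission notes name DESeq and the build mm8; the aligner, the mismatches allowed and versions are not given in the sources used here. The transform was inverted: after division by 1 step per library, 100% of nonzero values were whole reads within 0.05. Scaling is by median of ratios. Because the deposited values are transformed, values were compared with limma 3.58.1 (R 4.3.3), fitting 5 group means over all 12 libraries, a mean trend and Benjamini-Hochberg adjustment, after a filter of at least 10 reads in 2 libraries. Contrasts of reprogrammed cells weigh the 3 types equally. Arm ratios used exact permutation tests over libraries. Libraries of a group differed by more than sampling noise, so none was merged. Intervals and limits of 3 reads cover counting error only. The fit was tested on simulated data. Named were all family arms, the 5 most similar miRNAs, the 4 epithelium-linked arms with the highest mean VST and marker miRNAs; mmu-miR-205-5p and mmu-miR-375-3p were added after their values were seen. The members and lists were chosen with earlier results of these data known. Alternatives were 3 scalings (upper quartile, TMM-type, total count), log2 of normalized reads plus 1, voom, 2 other filters, a fit to the compared groups alone, a minimum difference of 1, 1 or 5 reads added in the arm ratios, and each replicate left out.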

Additional observations from a re-analysis of the deposited data

How the results depend on the processing

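No paired analysis was possible because the cell types share no replicate numbers. Against the median of ratios, other scalings moved reprogrammed cells relative to MEFs by -0.42 (upper quartile), 0.34 (TMM-type) and 1.01 (total count) on the log2 scale for all miRNAs alike, and MEFs relative to ESCs by 0.64, -0.49 and -0.89. With total count scaling, reprogrammed cells against MEFs turned direction for mmu-miR-141-3p (0.18) and mmu-miR-141-5p (0.34), as NT-iPSCs against MEFs did for mmu-miR-200c-3p (0.079).

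Counts of calls here cover all 9 tested members and serve only to compare settings. Among them, mmu-miR-141-5p and mmu-miR-200c-5p passed the read minimum only with ESC libraries, so the filter favoured their calls against ESCs. The shares of all miRNAs called under the alternatives are not given, so no count here is a result about the members. Asking for 100 reads in all libraries of 1 cell type left 5 members called in reprogrammed cells, in NT-ESCs and in NT-iPSCs against ESCs, where 8 of all 9 tested had been called, since fewer arms were tested, and 1 in NT-iPSCs against iPSCs. Between NT-iPSCs and iPSCs 1 member was called with no filter and 0 with only those groups fitted. Between NT-iPSCs and NT-ESCs 2 were called with total count scaling and with voom, and 0 with no filter and with only those groups fitted. In the main fit, 13.1% of all tested miRNAs were lower and 13.4% higher in NT-iPSCs than in iPSCs. Against NT-ESCs, 7.24% were lower and 5.6% higher. On leaving out single libraries the counts ran from 0 to 2 and from 0 to 1 in these 2 comparisons. The cause was not tested.

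For arm ratios, adding 5 reads turned MEFs against ESCs for miR-200a to -0.81, and adding 1 or 5 reads turned it for miR-200c to -0.63 and -2.51; adding 5 reads brought reprogrammed cells against ESCs past the threshold for miR-200c (-2.53) and miR-141 (-1.69). Here the 5p counts are low, so the reads added set the value. On leaving out single libraries the difference of reprogrammed cells ran from 1.94 to 2.32 against ESCs and 1.80 to 2.06 against MEFs for miR-200a. For miR-200b it ran from -0.96 to -0.77 against ESCs and -0.84 to 0.074 against MEFs, and for miR-141 from -0.53 to 0.41 against MEFs, the last 2 turning without MEF replicate 13.

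The other counts of members called stayed within 1.5 times their value under the alternatives run. At these depths mmu-miR-200c-5p had at most 14 and mmu-miR-429-5p at most 8 reads in a library, which leaves their levels imprecise.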
